A study of Mus musculus with 29 samples.

Results

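The 36 genes described here encode the proteins that fold, modify and dispose of other proteins in the endoplasmic reticulum (ER), and the sensors and transcription factors of the unfolded protein response. They were taken from a written list of mouse symbols, and all 36 were found among the 38924 gene identifiers of the count table. By role they formed 6 groups: 9 chaperones of the ER lumen with their cofactors, 6 lectin chaperones and disulfide isomerases, 4 translocon genes, 8 genes of ER-associated degradation, 5 sensors and transcription factors, and 4 targets of the integrated stress response.

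Polyadenylated RNA was sequenced from bone marrow cells of C57BL/6 mice, labelled as LT-HSC and ST-HSC (long-term and short-term haematopoietic stem cells) and as the multipotent progenitors MPP3 (biased to myeloid output) and MPP4 (biased to lymphoid output). Mutant mice carried a mutation of Dnmt3a, the gene of a de novo DNA methyltransferase, but the labels leave the allele unnamed. Mutant and control mice alike were young, and their marrow was taken 6 weeks after treatment with PIPC (an analogue of double-stranded RNA, in common use for switching on an inducible Cre recombinase). Which Cre was present, and whether the controls carried it, is likewise not stated in the labels. There were 3 LT-HSC, 4 ST-HSC, 4 MPP3 and 4 MPP4 libraries from mutant mice, and 4 LT-HSC, 3 ST-HSC, 3 MPP3 and 4 MPP4 libraries from control mice, 29 in all. Whether replicates are different animals is not stated, and the p-values therefore measure only the spread between these libraries, which may be technical. A number in the descriptions recurs across the populations of a genotype, so that libraries of different populations may share a source. Its meaning is not stated, and the tests between populations were run unpaired.

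As background, the chaperone BiP, the product of Hspa5, binds unfolded chains in the ER and, while not taken up by them, keeps the stress sensors IRE1 (Ern1), PERK (Eif2ak3) and ATF6 inactive. When unfolded chains accumulate, IRE1 splices the Xbp1 mRNA, ATF6 is cut to release a transcription factor, and PERK slows translation while favouring that of Atf4. XBP1 and ATF6 raise the genes of folding and ER-associated degradation, and ATF4 raises Ddit3, Trib3, Asns and Ppp1r15a. The same machinery is high in cells built for secretion or for filling granules, such as antibody-secreting cells and granulocyte precursors, without any acute stress. Counts of whole genes do not tell spliced from unspliced Xbp1 mRNA and say nothing of sensor activity.

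The promoters of several members carry the ER stress response element, which is bound by ATF6 and XBP1 with a CCAAT-binding factor. Some of these genes differed between populations below, and others, Canx, Dnajc3 and Derl3, were not called in any comparison. RefSeq promoters (GRCm38.p6, 250 bases before to 50 bases after the start site) were at hand for 31 of the 36 members. The element was searched on both strands as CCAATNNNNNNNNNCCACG, and was found in 9 of the 31 members, against 37 of 27025 genes with a promoter (0.137%). The related element, ATTGG and CCACG with any 1 base between them, was in 2 of the 31 members, Dnajb11 and Herpud1, and in 12 of all genes (0.0444%). No 2 of these matches overlapped. The UPR element TGACGTGG was in none of the 31 members and in 0.714% of all genes. The ATF4 site TGATGNAA was in 3 members, Herpud1, Trib3 and Asns, and in 4.51% of all genes. The 7 sequences that follow come from the members that both carry one of the first pair of elements before their start site and were higher in MPP3 in at least 1 comparison below. Each is read 5′ to 3′ on the strand of its gene, with the element in capitals.
Hspa5 (chr2:34772010-34772058, plus strand): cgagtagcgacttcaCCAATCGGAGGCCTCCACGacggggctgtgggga
Hsp90b1 (chr10:86705623-86705671, minus strand): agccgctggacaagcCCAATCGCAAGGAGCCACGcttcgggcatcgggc
Creld2 (chr15:88819505-88819553, plus strand): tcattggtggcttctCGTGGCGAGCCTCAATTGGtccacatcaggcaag
Calr (chr8:84847060-84847108, minus strand): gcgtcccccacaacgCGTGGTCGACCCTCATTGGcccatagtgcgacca
Pdia6 (chr12:17266476-17266524, plus strand): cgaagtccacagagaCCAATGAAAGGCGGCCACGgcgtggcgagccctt
Syvn1 (chr19:6046517-6046565, plus strand): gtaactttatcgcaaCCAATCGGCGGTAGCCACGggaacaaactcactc
Herpud1 (chr8:94386362-94386402, plus strand): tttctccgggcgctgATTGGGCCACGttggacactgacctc
The element began 65 bases before the start site in Hspa5 and 44 bases before it in Syvn1, and it lay on the opposite strand in Creld2 and Calr. A second match in Hsp90b1 began 107 bases before the start site, on the opposite strand. A match describes letters in this window and does not show binding.

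Library totals ran from 6133994 to 10374672 counts, and the 36 members together took 0.228% to 0.545% of them. Levels are given in CPM (TMM-scaled counts, set to a library of the same size), and a gene listed at 0 could have been as high as 0.288 to 0.564 CPM, depending on the library (3 counts). MPP3 libraries were high in the 6 genes listed here for MPP3. These summed to 4250 to 11210 CPM in mutant and 6463 to 9312 CPM in control MPP3 libraries, and to at most 1146 CPM in any other group. Mpo alone was at 3583 to 9612 CPM in MPP3 and at most 1067 CPM in other libraries. Cebpa did not separate the groups, at 12.43 to 26.71 CPM in MPP3 and up to 26.18 CPM in MPP4 libraries. The MPP3 libraries also held RNA of antibody-secreting cells. A list of 12 such genes, immunoglobulin genes among them, summed to 4649 to 39460 CPM in the 7 MPP3 libraries and to 10.02 to 4082 CPM in the other 22. Jchain, which joins antibody chains, stood at 58.3, 87.8, 219 and 558 CPM in mutant and 509, 138 and 432 CPM in control MPP3 libraries, and at 0 in 8 of the other 22. The mutant ST-HSC replicate 2 had 405.9 CPM of Slamf1, an LT-HSC marker, where the other mutant ST-HSC libraries had at most 1.83 CPM. Control ST-HSC libraries had at most 2.15 CPM, and LT-HSC libraries 14.16 to 54.15 CPM, so the value lay above LT-HSC levels too. Control LT-HSC replicates 1 to 3 had high neutrophil RNA (S100a8 at 349 to 2260 CPM, against 3.67 CPM in replicate 4). They also had high globin RNA (Hbb-bs at 2553 to 9292 CPM, against 186 CPM in replicate 4). The 4 MPP3 libraries over 200 CPM of Jchain, mutant replicates 3 and 4 and control replicates 1 and 3, are called high-Jchain, and the control LT-HSC replicates 1 to 3 neutrophil-rich, both limits being set after the values were seen. Leaving them out leaves control MPP3 replicate 2 or control LT-HSC replicate 4 as the only library of its group, assumed to vary like the other groups. Fits without the neutrophil-rich libraries also leave out the globin RNA of those libraries, and cannot tell the 2 apart. Genes of other cell types were higher in MPP3 as well. Against ST-HSC, LT-HSC and MPP4, 5, 5 and 3 of 6 mature B cell genes were higher in mutant MPP3 and 0, 0 and 0 in control MPP3. Of 8 proliferation genes 8, 1 and 0 were higher in mutant and 4, 1 and 0 in control MPP3, and of 6 erythroid genes 0, 0 and 4 in mutant and 0, 0 and 3 in control MPP3. Of the genes of basophils and mast cells, 3, 1 and 1 of 3 tested were higher in mutant and 0, 0 and 1 of 4 tested in control MPP3, Cpa3 among them against MPP4 in both genotypes. Nkg7, 1 of 5 genes on the T and NK cell list, was higher in all 6 comparisons. Others on that list were low throughout, Cd3e and Cd3g being at 0 in 20 and 23 of 29 libraries. Cd8a was at 0.486 to 3.48 CPM in MPP3 and up to 6.22 CPM elsewhere, and Klrb1c was at most 5.70 CPM. Macrophage genes gave 1 higher call against MPP4 in each genotype, and plasmacytoid dendritic cell genes 1 against mutant LT-HSC. The part of these cells in the results was not tested.

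Between 4 and 14 of the members were higher in MPP3 than in each of the other 3 populations, in mutant and in control mice. Few members passed the threshold in both genotypes, although most lay above 0 in both. In mutant mice, 14 of 36 members were higher in MPP3 than in ST-HSC, 7 than in LT-HSC and 4 than in MPP4, by edgeR's quasi-likelihood test at an adjusted p under 0.05. Over all genes tested, 2.87%, 1.78% and 1.07% were higher in the same comparisons. In control mice, 6 of 35 members tested were higher in MPP3 than in ST-HSC, 7 than in LT-HSC and 6 than in MPP4, against 1.1%, 0.569% and 0.736% of all genes. A single member, Ppp1r15a, was lower in control MPP3 than in control LT-HSC (0.89% of all genes). The median log2 difference over the members was 0.84, 0.65 and 0.55 in mutant mice against ST-HSC, LT-HSC and MPP4, and 0.75, 0.73 and 0.62 in control mice, while the median over all genes lay between -0.05 and 0.00. The 3 comparisons within a genotype share their MPP3 libraries, whereas mutant and control mice share no library. Members called higher in both genotypes numbered 3 against ST-HSC (Sdf2l1, Calr and P4hb), 2 against LT-HSC and 2 against MPP4 (Calr and Xbp1 in both), and Calr was called in all 6 comparisons. Of the 35 members tested in both genotypes, 27, 27 and 32 lay above 0 in both, in the same order. Those below 0 in both numbered 5, 3 and 1. Of the 11 antibody-secreting cell genes tested, 5, 4 and 5 were higher in the same 3 mutant comparisons and 0, 0 and 1 in the control ones, while Tnfrsf17, one of the 12 on that list, was at 0 in 22 of 29 libraries. With the mean log2 level of 4 antibody genes as a covariate, 0, 0 and 0 members were called in mutant mice and 0, 1 and 0 in control mice, in the same order, the remaining call being Calr. The median over the members was then 0.61, 0.41 and 0.47 in mutant mice and 0.67, 0.57 and 0.54 in control mice. The antibody level itself was 7.352 to 10.43 in mutant MPP3 and at most 4.58 in the other mutant libraries. In control mice it was 7.725 to 9.56 in MPP3 and at most 7.77, in ST-HSC replicate 1, in the others. The covariate thus largely follows the MPP3 label, and these fits cannot tell antibody RNA from MPP3 membership. The part of antibody-secreting cells in these differences was not tested further. In these bulk samples, more cells of a type and more RNA per cell cannot be told apart.

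The counts of higher members moved with single libraries. Against mutant ST-HSC the count was 9 without mutant ST-HSC replicate 2, and 10 to 14 without any other library. Against mutant LT-HSC it was 0 to 2 without mutant LT-HSC replicates 1, 2 or 3 or mutant MPP3 replicate 3, and 4 without mutant MPP3 replicate 4. Against mutant MPP4 it was 2 without mutant MPP3 replicate 4, mutant MPP4 replicate 2 or mutant MPP4 replicate 4. In control mice the calls in either direction, 6 against ST-HSC, 8 against LT-HSC and 6 against MPP4 with all libraries, were 1 to 5 without any 1 of the 3 MPP3 libraries. They were also 2 and 1 against ST-HSC without control ST-HSC replicates 2 and 3, 5 and 4 against LT-HSC without control LT-HSC replicates 1 and 4, and 1, 2 and 2 against MPP4 without control MPP4 replicates 1, 3 and 4. Without the neutrophil-rich libraries, and so with 1 control LT-HSC library, the count against control LT-HSC was 1. Leaving out the 4 high-Jchain MPP3 libraries, and so keeping 1 control MPP3 library, gave 6, 2 and 2 calls in mutant mice against ST-HSC, LT-HSC and MPP4, and 1, 1 and 0 in control mice, with medians of 0.56, 0.44 and 0.43, and 0.70, 0.58 and 0.61. The numbers in the descriptions begin with 17 or 18, which goes with a prefix of the column names of unstated meaning. Libraries of 17 hold 1 control MPP3 and 1 mutant LT-HSC library, and those of 18 hold 1 control ST-HSC library, so that the spread of these groups is taken from the others. Within the libraries of 17 and of 18 the median over the members was 0.89 and 0.60 against mutant ST-HSC, 0.85 and 0.42 against mutant LT-HSC, and 0.69 and 0.55 against mutant MPP4. In control mice these medians were 0.67 and 1.05 against ST-HSC, 0.61 and 0.81 against LT-HSC, and 0.57 and 0.73 against MPP4. The map of log2 differences shows the pattern for each member.

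**Figure D1:**
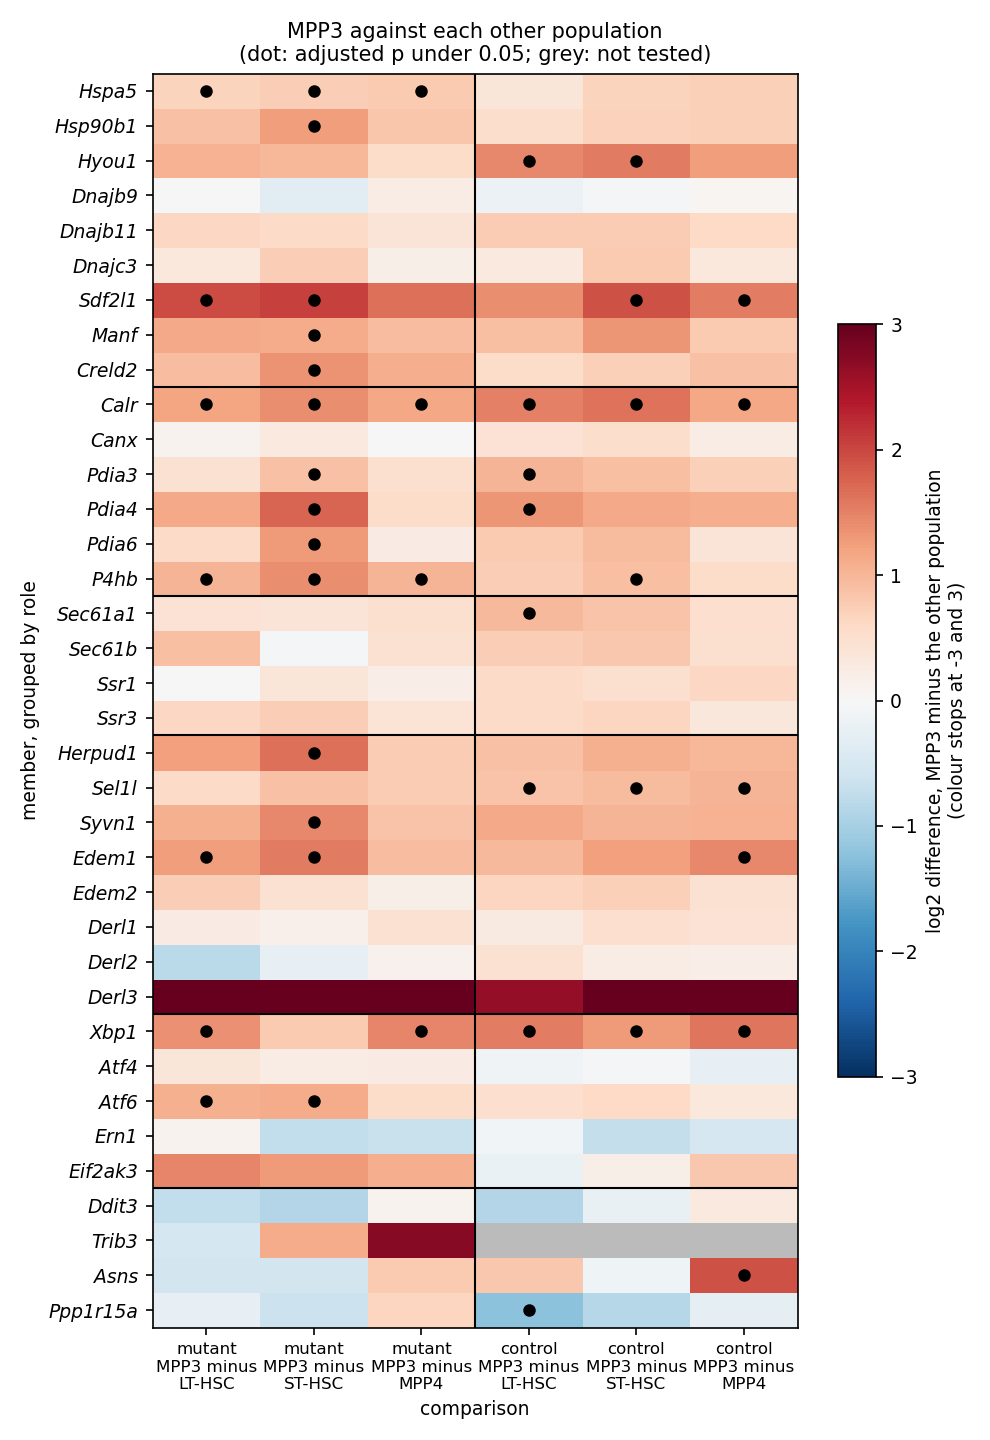
Log2 difference of each of the 36 members (rows, grouped by role) between MPP3 and each other population (columns, 3 in mutant and 3 in control mice), with red for higher in MPP3, dots for an adjusted p under 0.05 in edgeR and grey for not tested. Calr carries a dot in every column, 35 of 36 members lie above 0 in mutant MPP3 minus MPP4, and the rows of the integrated stress response targets are mixed in sign.

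Among the 6 lectin chaperones and disulfide isomerases, 5 were higher in mutant MPP3 than in mutant ST-HSC, and the median log2 difference of the group was 1.33. Calr (ENSMUSG00000003814, GRCm38 chromosome 8, 84841850 to 84846934, minus strand) encodes calreticulin, which holds glycoproteins while they fold and buffers ER calcium. Its level was 790.5, 519, 589.5 and 432 CPM in mutant MPP3 libraries, against 294, 275 and 192 in mutant LT-HSC, 190.5, 187, 275 and 233 in mutant ST-HSC and 289, 212, 323 and 214 in mutant MPP4 libraries. It was 487, 678 and 597 CPM in control MPP3 libraries, against 258, 216, 201 and 159 in control LT-HSC, 150, 233.5 and 179 in control ST-HSC and 186, 334, 206 and 329 in control MPP4 libraries. In both genotypes the lowest MPP3 library lay above the highest library of every other population. The log2 difference was 1.18 ± 0.24 against mutant LT-HSC (SE; adjusted p = 0.00775), 1.39 ± 0.22 against mutant ST-HSC (0.000948) and 1.15 ± 0.22 against mutant MPP4 (0.00696). In control mice it was 1.5 ± 0.23 against LT-HSC (adjusted p = 0.00158), 1.64 ± 0.26 against ST-HSC (0.0038) and 1.16 ± 0.23 against MPP4 (0.0142). Without the high-Jchain MPP3 libraries, with control MPP3 replicate 2 as the only library of its group, the Calr differences were 1.33 to 1.57 in mutant mice and 1.37 to 1.86 in control mice, and all but the one against control MPP4 (adjusted p = 0.136) stayed past the threshold. Without the neutrophil-rich libraries, against 1 control LT-HSC library, it was 1.88 (adjusted p = 0.0339). Without single libraries, the call against mutant LT-HSC was lost once (mutant LT-HSC replicate 3, adjusted p = 0.0731), and that against control MPP4 was lost without control MPP3 replicates 2 or 3 or control MPP4 replicates 1 or 3 (highest adjusted p = 0.0624).

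P4hb (ENSMUSG00000025130, GRCm38 chromosome 11, 120560298 to 120573253, minus strand) encodes protein disulfide isomerase, which forms and reshuffles disulfide bonds and is also a subunit of prolyl hydroxylase. It had 268, 225, 238 and 183 CPM in mutant MPP3 libraries, against 123.5, 104 and 109 in mutant LT-HSC, 121, 58.5, 78.0 and 88.2 in mutant ST-HSC and 126, 122, 111.5 and 88.1 in mutant MPP4 libraries. It had 175, 156 and 179 CPM in control MPP3 libraries, against 109, 122, 84.0 and 96.3 in control LT-HSC, 99.4, 90.2 and 79.6 in control ST-HSC and 107, 153.5, 92.4 and 113 in control MPP4 libraries. The MPP3 libraries lay above all others of their genotype. The log2 difference was 1.39 ± 0.21 against mutant ST-HSC (adjusted p = 0.000761), 1.01 ± 0.23 against mutant LT-HSC (0.0177) and 1.01 ± 0.21 against mutant MPP4 (0.0146). In control mice P4hb was called against ST-HSC (0.91 ± 0.22, adjusted p = 0.0326), and measured 0.73 ± 0.20 against LT-HSC (0.0747) and 0.55 ± 0.20 against MPP4 (0.239). The call against mutant LT-HSC was lost without any 1 of the mutant LT-HSC libraries, that against mutant MPP4 without mutant MPP4 replicate 4, and that against control ST-HSC without control ST-HSC replicates 2 or 3 or any control MPP3 library. Without the high-Jchain libraries the mutant calls held, and the control difference against ST-HSC was 0.80 (adjusted p = 0.345).

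Pdia4, a further isomerase, was at 105, 60.3, 84.0 and 127 CPM in mutant MPP3 libraries and at 32.4, 6.77, 37.3 and 35.1 CPM in mutant ST-HSC libraries. The low mutant ST-HSC value is from replicate 2, and the difference of 1.74 ± 0.39 (adjusted p = 0.0142) kept its call without any single library and was 1.57 (adjusted p = 0.0819) without the high-Jchain libraries. In control mice it was at 92.7, 72.6 and 95.1 CPM in MPP3 and 41.5, 37.7, 34.8 and 24.9 CPM in LT-HSC libraries, without overlap (1.33 ± 0.28, adjusted p = 0.0165), and this call was lost without control MPP3 replicates 1 or 3. Pdia3, the isomerase that works with the lectin chaperones, was higher in mutant MPP3 than in ST-HSC (0.88 ± 0.23, adjusted p = 0.0295) and in control MPP3 than in LT-HSC (1.03 ± 0.25, 0.0449). The first was lost without mutant ST-HSC replicates 2 or 4 or mutant MPP3 replicates 1, 3 or 4 (highest adjusted p = 0.0703) and the second without control LT-HSC replicates 1, 2, 3 or 4 or control MPP3 replicates 2 or 3 (highest adjusted p = 0.235). Pdia6 was called against mutant ST-HSC (1.28 ± 0.35, 0.0428), and lost that call without mutant ST-HSC replicates 2 or 4 or mutant MPP3 replicates 1, 2, 3 or 4 (highest adjusted p = 0.101). With the high-Jchain libraries left out, Pdia3 and Pdia6 against mutant ST-HSC were 0.86 (adjusted p = 0.117) and 1.18 (0.157), and Pdia3 and Pdia4 against control LT-HSC 1.17 (0.249) and 1.08 (0.381). Against the 1 control LT-HSC library that is not neutrophil-rich, Pdia3 was 0.94 (adjusted p = 0.467) and Pdia4 1.80 (0.126). Canx, the membrane-bound relative of calreticulin, was not called in any comparison, with MPP3 differences of 0.02 ± 0.16 to 0.30 ± 0.16 in mutant and 0.22 ± 0.26 to 0.52 ± 0.28 in control mice.

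**Figure D2:**
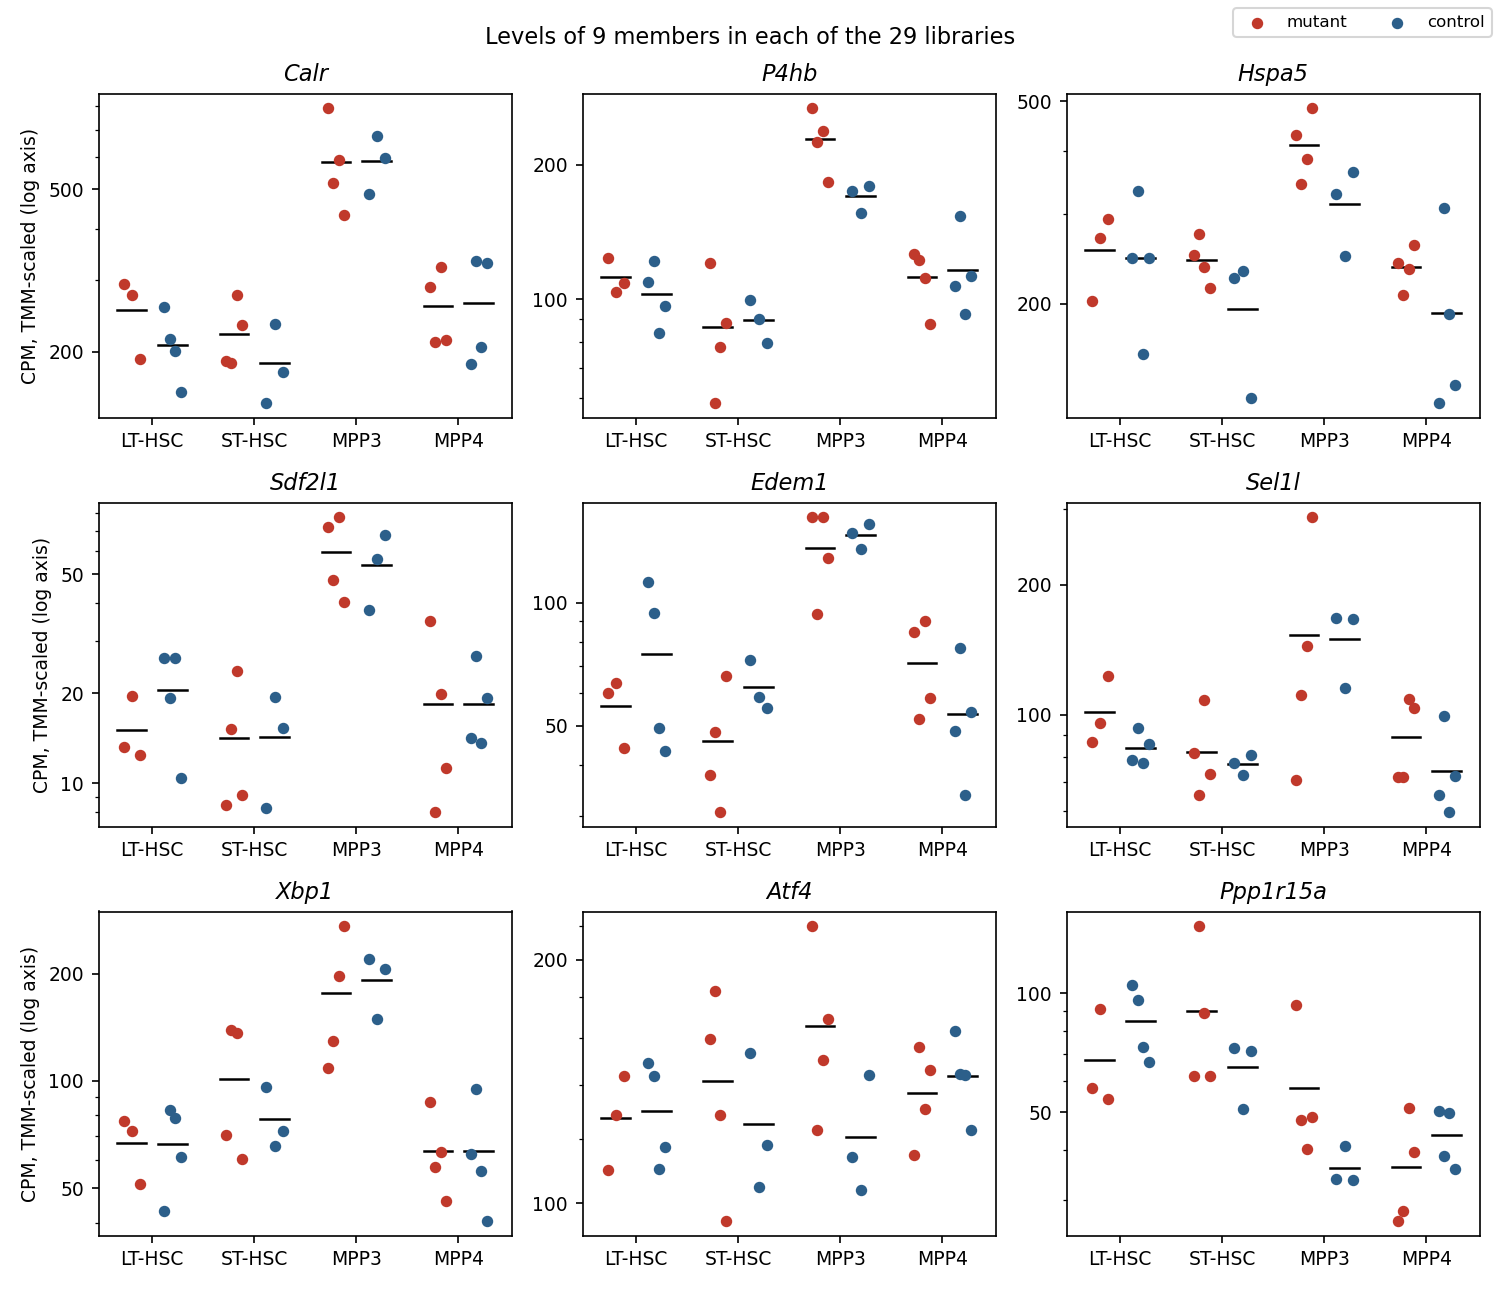
TMM-scaled CPM (log axis) of 9 members in every library, by population, with mutant libraries in red to the left of control libraries in blue and the group mean as a bar. Calr, P4hb, Sdf2l1 and Edem1 are highest in MPP3 in both genotypes, Sel1l and Xbp1 spread widely within mutant MPP3, and Atf4 overlaps between all groups.

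Of the 9 chaperones and cofactors of the lumen, 5 were higher in mutant MPP3 than in mutant ST-HSC, 2 than in LT-HSC and 1 than in MPP4, while control mice gave 2, 1 and 1. Hspa5 (ENSMUSG00000026864, GRCm38 chromosome 2, 34771970 to 34777547, plus strand) was at 429, 343.5, 385 and 485 CPM in mutant MPP3 libraries, against 203, 269 and 294 in mutant LT-HSC, 249, 274.5, 236 and 215 in mutant ST-HSC and 241, 208, 234 and 261 in mutant MPP4 libraries. The 4 mutant MPP3 libraries lay above all 11 other mutant libraries. The log2 difference was 0.78 ± 0.17 against mutant MPP4 (adjusted p = 0.0171), 0.75 ± 0.17 against ST-HSC (0.0126) and 0.66 ± 0.18 against LT-HSC (0.0499). The call against MPP4 was lost without mutant MPP3 replicate 4 or mutant MPP4 replicate 2 (highest adjusted p = 0.0696), and that against LT-HSC without mutant LT-HSC replicates 1, 2 or 3 or mutant MPP3 replicates 1, 3 or 4 (highest adjusted p = 0.279). All 3 calls were lost without the high-Jchain libraries, at 0.70 (adjusted p = 0.122) against MPP4, 0.68 (0.0847) against ST-HSC and 0.58 (0.185) against LT-HSC. In control mice Hspa5 was at 329, 248 and 363.5 CPM in MPP3 libraries, against 245.5, 333, 159 and 246 in control LT-HSC, 224.5, 232 and 131 in control ST-HSC and 128, 309, 191 and 139 in control MPP4 libraries. The control groups overlapped except against ST-HSC, and the differences of 0.36 ± 0.30 to 0.71 ± 0.29 were not called (smallest adjusted p = 0.311).

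Sdf2l1 (ENSMUSG00000022769, GRCm38 chromosome 16, 17130138 to 17132383, minus strand) encodes a small partner of BiP and its J-domain proteins and had the largest called difference of the group. It was at 72.2, 48.0, 77.6 and 40.4 CPM in mutant MPP3 libraries, against 13.2, 19.6 and 12.5 in mutant LT-HSC, 8.46, 15.2, 23.8 and 9.13 in mutant ST-HSC and 34.8, 8.03, 19.9 and 11.3 in mutant MPP4 libraries. It was at 38.0, 56.0 and 67.7 CPM in control MPP3 libraries, against 26.2, 19.3, 26.2 and 10.5 in control LT-HSC, 8.30, 19.4 and 15.3 in control ST-HSC and 14.2, 26.7, 13.7 and 19.3 in control MPP4 libraries. No MPP3 library overlapped another population of its genotype. The difference was 2.06 ± 0.45 against mutant ST-HSC (adjusted p = 0.0105), 1.95 ± 0.49 against mutant LT-HSC (0.0334), 1.90 ± 0.41 against control ST-HSC (0.0202) and 1.55 ± 0.37 against control MPP4 (0.0418). It was not called against mutant MPP4 (1.66 ± 0.44, 0.0686) or control LT-HSC (1.40 ± 0.37, 0.0624). The call against mutant ST-HSC held without any single library, that against mutant LT-HSC was lost without mutant LT-HSC replicates 1, 2 or 3 or mutant MPP3 replicates 1 or 3 (highest adjusted p = 0.169), that against control ST-HSC without control ST-HSC replicates 1 or 3 or control MPP3 replicates 2 or 3 (highest adjusted p = 0.104), and that against control MPP4 without control MPP3 replicates 1, 2 or 3 or control MPP4 replicates 1, 3 or 4 (highest adjusted p = 0.227). Without the high-Jchain libraries the call against mutant ST-HSC held, at 2.10 (adjusted p = 0.0406), and the others were lost, at 1.98 (0.0889) against mutant LT-HSC, 1.97 (0.167) against control ST-HSC and 1.61 (0.454) against control MPP4.

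Hsp90b1, the ER form of the HSP90 chaperone, was at 376, 447, 624 and 1080 CPM in mutant MPP3 and 392.4, 206, 242 and 212 CPM in mutant ST-HSC libraries. The highest value, in mutant MPP3 replicate 4, was from the library with the most Jchain, and the lowest MPP3 library lay within the ST-HSC range. The difference was 1.25 ± 0.27 (adjusted p = 0.00987) and 0.66 (0.154) without the high-Jchain libraries. Hyou1, a BiP-like holdase and exchange factor, was called in control MPP3 against ST-HSC (1.57 ± 0.37, 0.0361) and LT-HSC (1.44 ± 0.34, 0.0403), and was not called in mutant mice, where it measured 0.55 ± 0.30 to 1.05 ± 0.33. Manf and Creld2, small ER-resident proteins, were called against mutant ST-HSC (1.11 ± 0.30, adjusted p = 0.0372, and 1.35 ± 0.38, 0.046), Creld2 with overlapping groups. Hyou1 lost its call against ST-HSC without any 1 of the 6 libraries (highest adjusted p = 0.161), and that against LT-HSC without control LT-HSC replicates 1, 3 or 4 or control MPP3 replicates 1, 2 or 3 (highest adjusted p = 0.2). Manf lost its call without mutant ST-HSC replicates 1, 2 or 4 or mutant MPP3 replicate 1 (highest adjusted p = 0.137), and Creld2 without mutant ST-HSC replicates 2, 3 or 4 or mutant MPP3 replicates 1, 3 or 4 (highest adjusted p = 0.121). With the high-Jchain libraries left out, Manf was 1.37 (adjusted p = 0.0435), Creld2 0.90 (0.326), and Hyou1 1.59 (0.25) against control ST-HSC and 1.46 (0.317) against control LT-HSC. With the neutrophil-rich libraries left out, Hyou1 was 1.73 (adjusted p = 0.224) against control LT-HSC. The J-domain cofactors Dnajb9, Dnajb11 and Dnajc3 were not called, and Dnajb9, an early target of XBP1 that restrains IRE1, measured -0.31 ± 0.35 to 0.23 ± 0.35 in mutant and -0.18 ± 0.32 to 0.05 ± 0.32 in control mice.

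The 4 translocon genes, whose products form the channel into the ER (Sec61a1, Sec61b) and its associated TRAP complex (Ssr1, Ssr3), gave 1 call. Sec61a1 was at 115 to 149 CPM in control MPP3 and 49.4 to 81.7 CPM in control LT-HSC libraries, without overlap (0.98 ± 0.22, adjusted p = 0.0261). The call was lost without control LT-HSC replicates 1 or 4 or any control MPP3 library, and the difference was 1.17 (adjusted p = 0.212) without the high-Jchain and 1.07 (0.251) without the neutrophil-rich libraries. In mutant mice Sec61a1 measured 0.40 ± 0.20 to 0.47 ± 0.20. The median of the 4 genes was 0.38 to 0.53 in the mutant and 0.48 to 0.73 in the control comparisons.

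ER-associated degradation pulls misfolded proteins out of the ER for the proteasome. Its 8 genes gave 3 calls in mutant MPP3 against ST-HSC, 1 against LT-HSC and 0 against MPP4. Against mutant MPP4, 4 of them had an unadjusted p under 0.05, as had 1698 of 14766 genes. Control mice gave 1, 1 and 2 calls in the same order. Edem1 (ENSMUSG00000030104, GRCm38 chromosome 6, 108828641 to 108859356, plus strand), a lectin that marks misfolded glycoproteins, was at 162, 93.7, 162 and 129 CPM in mutant MPP3 libraries, against 60.0, 63.7 and 44.2 in mutant LT-HSC, 37.9, 48.3, 30.8 and 66.1 in mutant ST-HSC and 84.8, 52.0, 90.3 and 58.3 in mutant MPP4 libraries. It was at 148, 135.5 and 156 CPM in control MPP3 libraries, against 113, 94.6, 49.3 and 43.3 in control LT-HSC, 72.4, 58.7 and 55.4 in control ST-HSC and 48.5, 77.6, 33.8 and 54.2 in control MPP4 libraries. Every MPP3 library lay above the other populations of its genotype. The difference was 1.57 ± 0.27 against mutant ST-HSC (adjusted p = 0.00232), 1.26 ± 0.30 against mutant LT-HSC (0.0209) and 1.45 ± 0.30 against control MPP4 (0.0177). The first held without any single library, the second was lost without mutant LT-HSC replicates 1, 2 or 3 or mutant MPP3 replicate 3 (highest adjusted p = 0.144), and the third without control MPP3 replicates 1 or 3 or control MPP4 replicates 1, 3 or 4 (highest adjusted p = 0.073). Without the high-Jchain libraries Edem1 was 1.49 (adjusted p = 0.0248) against mutant ST-HSC, 1.17 (0.103) against mutant LT-HSC and 1.35 (0.454) against control MPP4, the first of these still past the threshold.

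Sel1l and Syvn1 encode the scaffold and the ubiquitin ligase of the main retrotranslocation complex. Sel1l (ENSMUSG00000020964, GRCm38 chromosome 12, 91806043 to 91849157, minus strand) was at 70.9, 111, 145 and 286 CPM in mutant MPP3 libraries, against 86.6, 95.7 and 123 in mutant LT-HSC, 81.8, 65.2, 108 and 73.1 in mutant ST-HSC and 71.7, 71.7, 109 and 103.5 in mutant MPP4 libraries. It was at 167, 115.5 and 167 CPM in control MPP3 libraries, against 78.6, 93.4, 77.4 and 85.8 in control LT-HSC, 77.3, 72.5 and 80.7 in control ST-HSC and 65.3, 99.5, 59.7 and 72.4 in control MPP4 libraries. The control groups did not overlap, whereas mutant MPP3 spread widely and overlapped every other mutant population. Sel1l was called in control MPP3 against MPP4 (1.02 ± 0.21, adjusted p = 0.0158), ST-HSC (0.96 ± 0.23, 0.032) and LT-HSC (0.85 ± 0.21, 0.0438). Without the high-Jchain libraries, which leaves replicate 2 alone with a spread taken from the other groups, these differences were 0.65, 0.59 and 0.48 (adjusted p = 0.507 to 0.739), and without the neutrophil-rich libraries that against LT-HSC was 0.80 (0.459). The call against control MPP4 was lost without control MPP3 replicates 1 or 3 or control MPP4 replicates 1, 3 or 4 (highest adjusted p = 0.0996), that against ST-HSC without control ST-HSC replicates 1, 2 or 3 or control MPP3 replicates 1 or 3 (highest adjusted p = 0.147), and that against LT-HSC without control LT-HSC replicates 1, 2, 3 or 4 or control MPP3 replicates 1 or 3 (highest adjusted p = 0.232). In mutant mice the differences of 0.57 ± 0.34 to 0.89 ± 0.31 were not called.

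Syvn1 was at 77.2, 63.7, 111.5 and 93.8 CPM in mutant MPP3 and 36.8, 17.9, 25.5 and 44.9 CPM in mutant ST-HSC libraries, without overlap (1.45 ± 0.30, adjusted p = 0.00808). Its other MPP3 differences, 0.85 ± 0.30 to 1.15 ± 0.33, were not called, although the MPP3 libraries lay above the other populations in each. The difference of Syvn1 from mutant ST-HSC was 1.17 (adjusted p = 0.0951) without the high-Jchain libraries. Herpud1, a stress-induced membrane protein of this complex, was called against mutant ST-HSC with overlapping groups (1.65 ± 0.43, 0.0325), and lost the call without mutant ST-HSC replicates 1, 2 or 3 or mutant MPP3 replicates 3 or 4 (highest adjusted p = 0.154). It was 0.78 (adjusted p = 0.397) without the high-Jchain libraries, 2.59 (0.111) within the libraries of 17 and 0.45 (0.814) within those of 18. Edem2, Derl1 and Derl2 were not called in any comparison. Derl3 (ENSMUSG00000009092, GRCm38 chromosome 10, 75893413 to 75895941, plus strand), a derlin that is high in secretory tissues, had 0 to 41.2 CPM in mutant MPP3 libraries and 3.17 to 26.4 CPM in control MPP3 libraries. Elsewhere it had at most 2.02 CPM in mutant and 10.33 CPM in control libraries. Its differences were the largest of the list, up to 6.54 ± 1.63 against control MPP4, and none was called (adjusted p = 0.0821 to 0.421).

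Among the sensors and factors, Xbp1 (ENSMUSG00000020484, GRCm38 chromosome 11, 5520659 to 5525893, plus strand) was called in 5 of the 6 MPP3 comparisons. It was at 109, 129, 197.5 and 272 CPM in mutant MPP3 libraries, against 77.3, 72.2 and 51.4 in mutant LT-HSC, 70.5, 139, 136 and 60.3 in mutant ST-HSC and 87.1, 57.5, 63.3 and 46.1 in mutant MPP4 libraries. It was at 219.8, 149 and 207 CPM in control MPP3 libraries, against 43.2, 83.0, 78.7 and 61.1 in control LT-HSC, 96.2, 65.8 and 72.4 in control ST-HSC and 62.5, 95.2, 56.0 and 40.5 in control MPP4 libraries. The MPP3 libraries lay above the others except that mutant MPP3 overlapped mutant ST-HSC, in which replicates 2 and 3 were high. The difference was 1.46 ± 0.31 against mutant MPP4 (adjusted p = 0.0192), 1.38 ± 0.35 against mutant LT-HSC (0.0334) and 0.79 ± 0.31 against mutant ST-HSC (0.17). In control mice it was 1.60 ± 0.28 against MPP4 (0.00441), 1.53 ± 0.28 against LT-HSC (0.00537) and 1.29 ± 0.30 against ST-HSC (0.0304). Without the high-Jchain libraries the differences called above were 0.81 to 0.90 in mutant and 0.93 to 1.24 in control mice, and none stayed past the threshold (adjusted p = 0.241 to 0.439). With the mean log2 level of 4 antibody genes as a covariate the mutant differences turned to -0.39 (adjusted p = 0.958) against LT-HSC and -0.49 (0.98) against MPP4. With the same covariate the control differences were 1.24 (adjusted p = 0.246) against LT-HSC, 1.04 (0.571) against ST-HSC and 1.25 (0.536) against MPP4, all above 0 and none past the threshold. As given above, this covariate largely follows the MPP3 label, so these fits cannot tell antibody RNA from MPP3 membership. The control calls against LT-HSC and MPP4 held without any single library, although that against LT-HSC was lost without the 3 neutrophil-rich libraries together (1.65, adjusted p = 0.126), and the call against control ST-HSC was lost without control ST-HSC replicates 2 or 3 or control MPP3 replicates 1 or 3. The call against mutant LT-HSC was lost without mutant LT-HSC replicates 1, 2 or 3 or mutant MPP3 replicates 3 or 4 (highest adjusted p = 0.19), and that against mutant MPP4 without mutant MPP3 replicates 3 or 4 or mutant MPP4 replicates 2, 3 or 4 (highest adjusted p = 0.0852).

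Atf6 was at 98.3 to 198 CPM in mutant MPP3 libraries, against 41.0 to 71.1 CPM in mutant ST-HSC and 47.7 to 73.7 CPM in mutant LT-HSC libraries. Replicate 1 stood far above the other MPP3 libraries, which themselves lay above both stem cell groups. The difference was 1.10 ± 0.26 against ST-HSC (adjusted p = 0.0187) and 1.06 ± 0.29 against LT-HSC (0.0491), the first lost without mutant ST-HSC replicate 2 or mutant MPP3 replicate 1 (highest adjusted p = 0.0729) and the second without mutant LT-HSC replicates 1, 2 or 3 or mutant MPP3 replicates 1, 3 or 4 (highest adjusted p = 0.205). It was 1.34 (adjusted p = 0.0314) against ST-HSC and 1.29 (0.0573) against LT-HSC without the high-Jchain libraries. In control mice Atf6 measured 0.33 ± 0.25 to 0.59 ± 0.27 and was not called. Ern1 measured -0.74 ± 0.40 to 0.11 ± 0.43 in mutant and -0.71 ± 0.35 to -0.08 ± 0.32 in control mice, and Eif2ak3 1.08 ± 0.45 to 1.46 ± 0.50 in mutant and -0.21 ± 0.59 to 0.80 ± 0.59 in control mice, with no call for either sensor. Atf4 was at 219.9, 123, 150.4 and 169 CPM in mutant and 114, 104 and 144 CPM in control MPP3 libraries. It overlapped every other population of its genotype, with differences of 0.22 ± 0.21 to 0.36 ± 0.23 in mutant and -0.25 ± 0.20 to -0.06 ± 0.21 in control mice.

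Among the 4 targets of the integrated stress response, calls between populations went in both directions. Ppp1r15a (ENSMUSG00000040435, GRCm38 chromosome 7, 45522916 to 45526268, minus strand) encodes the phosphatase subunit that restores translation after stress. It was at 33.8, 41.0 and 33.6 CPM in control MPP3 libraries and 50.4, 38.8, 49.6 and 35.9 CPM in control MPP4 libraries, against 105, 96.3, 72.9 and 66.8 CPM in control LT-HSC libraries. Neither progenitor group overlapped LT-HSC, and the differences were -1.23 ± 0.24 (adjusted p = 0.0103) and -0.96 ± 0.22 (0.0123). In mutant mice it was at 26.5, 28.0, 51.1 and 39.7 CPM in MPP4 and 61.8, 148, 89.2 and 61.8 CPM in ST-HSC libraries (-1.30 ± 0.34, 0.0428), without overlap. Mutant MPP3, at 93.5, 47.6, 40.2 and 48.7 CPM, overlapped mutant LT-HSC, at 57.7, 91.2 and 53.9 CPM. The control MPP3 call was lost without control MPP3 replicates 1 or 3, the control MPP4 call without control MPP4 replicate 4, and the mutant call without mutant ST-HSC replicates 2 or 3 or mutant MPP4 replicates 1, 2 or 4 (highest adjusted p = 0.16). Without the neutrophil-rich libraries, against 1 control LT-HSC library, both control calls were lost, at -0.89 (adjusted p = 0.381) for MPP3 and -0.62 (0.709) for MPP4. The MPP3 difference was -1.04 (adjusted p = 0.353) without the high-Jchain libraries.

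Asns, asparagine synthetase, was at 25.6, 18.7 and 18.6 CPM in control MPP3 and 4.51, 9.51, 2.86 and 5.27 CPM in control MPP4, against 30.4, 22.2 and 16.2 CPM in control ST-HSC libraries. Control MPP4 lay below both other groups without overlap. The difference was 1.91 ± 0.43 for MPP3 minus MPP4 (adjusted p = 0.0273) and -2.05 ± 0.43 for MPP4 minus ST-HSC (0.0168), the first lost without control MPP3 replicates 1, 2 or 3 or control MPP4 replicates 1, 3 or 4 (highest adjusted p = 0.14) and the second without control ST-HSC replicate 1 or control MPP4 replicates 3 or 4 (highest adjusted p = 0.0578). The MPP3 minus MPP4 difference was 1.75 (adjusted p = 0.525) without the high-Jchain libraries. In mutant mice Asns measured 0.79 ± 0.51 for MPP3 minus MPP4 and was not called. Ddit3, the pro-apoptotic factor CHOP, was at 2.60, 14.2, 7.85 and 4.94 CPM in mutant and 15.4, 8.12 and 7.10 CPM in control MPP3 libraries, against 17.6, 4.95 and 14.2 CPM in mutant and 20.3, 9.87, 20.7 and 24.4 CPM in control LT-HSC libraries. The groups overlapped, and the differences of -0.88 ± 0.68 to 0.11 ± 0.68 in mutant and -0.88 ± 0.49 to 0.29 ± 0.49 in control mice were not called. Trib3 was near the floor, was not tested in control mice and was not called in mutant mice.

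The levels within the 7 MPP3 libraries fell into more than 1 pattern. Each of the 36 members was set against Jchain and against Mpo, the granule enzyme myeloperoxidase that marks myeloid progenitors, a choice made after the values were seen, which gave 72 relations with p-values from all 5040 pairings. Xbp1 followed Jchain (Pearson r = 0.971, Spearman rho = 1, n = 7, exact permutation p = 0.000198 and 0.000397, adjusted p = 0.00713 and 0.00953), and r was 0.957 without the 2 libraries farthest from the median of Jchain. Derl3 gave r = 0.971 and rho = 1 with the same exact permutation p-values, and r = 0.977 without those libraries. Sel1l gave r = 0.915 and rho = 1 (exact permutation p = 0.000992 and 0.000397, adjusted p = 0.0214 and 0.00953), and 0.977 without them. Calr followed Mpo instead (r = 0.961, rho = 0.929, exact permutation p = 0.00119 and 0.00675, adjusted p = 0.0214 and 0.0972, and r = 0.995 without 2 libraries), while against Jchain it gave r = -0.715 and rho = -0.75 (exact permutation p = 0.0744 and 0.0663, adjusted p = 0.298 and 0.334). Xbp1 against Mpo gave r = -0.659 and rho = -0.643 (exact permutation p = 0.109 and 0.139, adjusted p = 0.374 and 0.385). Jchain and Mpo themselves gave r = -0.588 (exact permutation p = 0.164). At an unadjusted p under 0.05 for r, 11 members were related to Jchain and 6 to Mpo, in both directions. Negative were Trib3 (r = -0.786) and Ppp1r15a (-0.712) with Jchain, and Hsp90b1 (-0.817), Sel1l (-0.808) and Edem2 (-0.792) with Mpo. The same relations were not computed over all genes, so no background share stands beside these counts. Within a genotype there are only 4 and 3 MPP3 libraries, too few for a value. All these levels share the library totals, and what part the antibody-secreting RNA plays in the MPP3 levels was not tested beyond the fits given above.

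**Figure D3:**
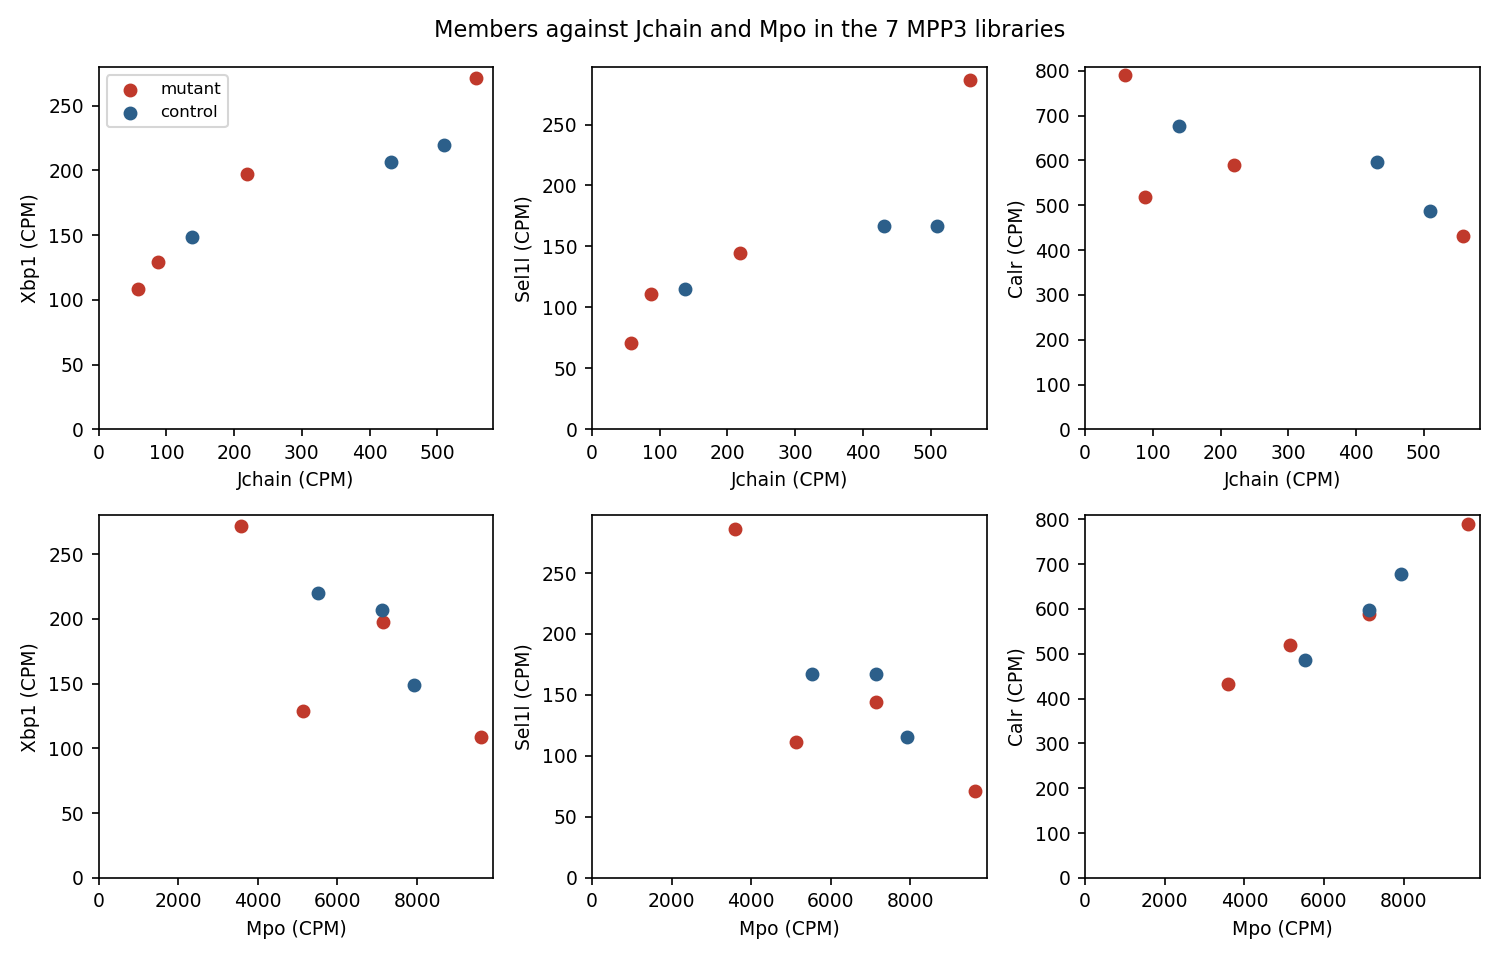
Levels in CPM (linear axes from 0) of Xbp1, Sel1l and Calr against Jchain (top row) and Mpo (bottom row) in the 4 mutant (red) and 3 control (blue) MPP3 libraries. Xbp1 and Sel1l rise with Jchain across libraries of both genotypes, and Calr rises with Mpo.

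Few calls separated the other populations. No member was called in ST-HSC against LT-HSC, in mutant or control mice, by edgeR or by DESeq2 (0.298% and 0.174% of all genes called). In each genotype 1 member had an unadjusted p under 0.05 in edgeR. Over all genes it was 1173 of 14766 in mutant and 1514 of 14937 in control mice. MPP4 against LT-HSC gave no call in mutant mice (2.17% of all genes called, 0 members by DESeq2) and 1 lower in control mice (2.66%). In the mutant comparison 4 members had an unadjusted p under 0.05, against 1535 of 14766 genes. MPP4 against ST-HSC gave 1 lower in each genotype (1.11% in mutant and 0.864% in control mice). These calls are the Ppp1r15a and Asns differences above. The median over the members lay between -0.13 and 0.19 in these 6 comparisons.

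No member differed between mutant and control mice past the threshold. In mutant minus control comparisons, 0 of 35 members tested were called in LT-HSC, 0 of 34 in ST-HSC, 0 of 35 in MPP3 and 0 of 34 in MPP4, by edgeR and by DESeq2. At an unadjusted p under 0.05 there were 2, 1, 1 and 1 members. Over all genes tested, 1136 of 13922, 499 of 13381, 296 of 13572 and 407 of 13108 had an unadjusted p under 0.05. Past the adjusted threshold, 0%, 0%, 0.00737% and 0% of all genes were called. The smallest p in each population belonged to Derl2 in LT-HSC (0.90 ± 0.35, adjusted p = 0.521), Sec61b in ST-HSC (1.07 ± 0.43, adjusted p = 0.998), P4hb in MPP3 (0.42 ± 0.19, adjusted p = 1) and Pdia4 in MPP4 (0.64 ± 0.29, adjusted p = 0.999). Averaged over the 4 populations, 28 of 36 members lay above 0 with a median of 0.11, against 7914 of 15915 genes and a median of -0.00123. None was called by edgeR or DESeq2 (0.0189% of all genes, all lower). An unadjusted p under 0.05 was found for 4 members, and over all genes for 1196 of 15915. The 4 members were Manf (0.48 ± 0.18, adjusted p = 0.482), Syvn1 (-0.37 ± 0.16), Hspa5 (0.26 ± 0.12) and Ern1 (0.43 ± 0.21). An F test of whether the mutant effect differed between populations called 0 members by edgeR and by DESeq2, with 0 at an unadjusted p under 0.05 in edgeR and 0% of all genes called. Calr measured -0.01 ± 0.22 in MPP3 and 0.28 ± 0.21 in LT-HSC, Xbp1 -0.12 ± 0.30 in MPP3 and 0.00 ± 0.26 in LT-HSC, and Hspa5 0.38 ± 0.20 in MPP3 and 0.04 ± 0.24 in LT-HSC. Of Derl2, Sec61b, P4hb and Pdia4, in the population named for each, only P4hb had groups that did not overlap. It was at 268, 225, 238 and 183 CPM in mutant and 175, 156 and 179 CPM in control MPP3 libraries. Groups of other members lay apart as well. Eif2ak3 in MPP3 was at 19.19 to 25.7 CPM in mutant and 10.38 to 18.92 CPM in control libraries. Pdia3 in LT-HSC was at 158.1 to 216.8 CPM in mutant and 121.6 to 156.4 CPM in control libraries. Groups of so few libraries can lie apart by chance, and the share of all genes with groups apart was not computed. The separations of P4hb, Eif2ak3 and Pdia3 are therefore given as a description and not as mutant differences. Differences within these errors were not detectable with these libraries.

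**Figure D4:**
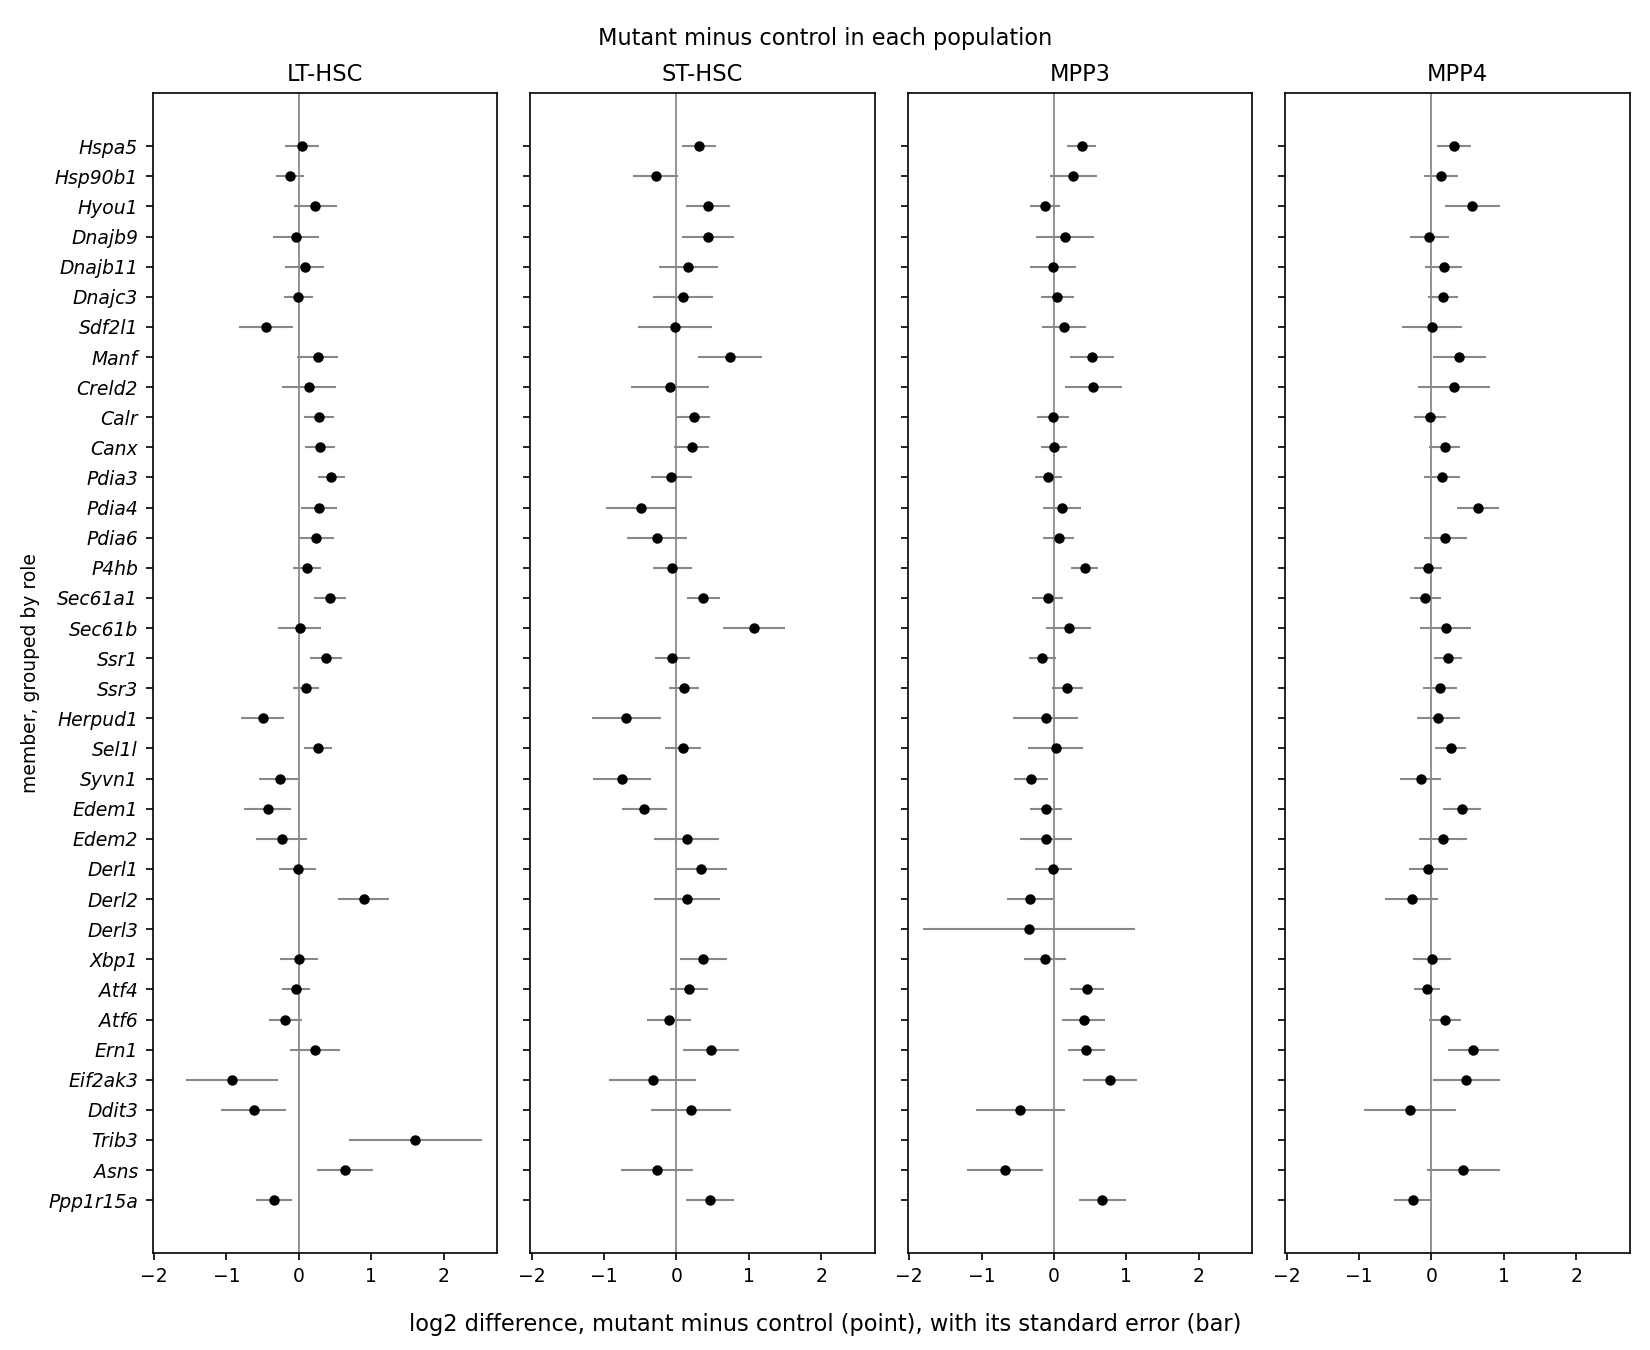
Log2 difference, mutant minus control, of each member (rows, grouped by role) in the 4 populations, as a point with its standard error as a bar. Points lie on both sides of 0 in each population, and no member passed an adjusted p of 0.05. Members not tested in a population have no point.

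Levels between genes were compared per kilobase of exon. Hsp90b1 and Calr had the highest median level over the 29 libraries, 89.8 and 89.6 CPM per kb, followed by Atf4 at 60.9 CPM per kb and Hspa5 at 58.1 CPM per kb. The sensors were lower, with medians of 14 CPM per kb for Ern1, 7.73 for Atf6 and 1.77 for Eif2ak3. Trib3 and Derl3 were the lowest, at 0.213 and 0.327 CPM per kb.

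A wider list of the pathway gave fewer calls. Of 49 further genes of ER folding, entry and degradation, all tested, 8 were higher in mutant MPP3 than in ST-HSC, 0 than in LT-HSC and 1 than in MPP4, and in control mice 1, 3 and 0. Their median log2 difference was 0.45, 0.40 and 0.32 in mutant and 0.53, 0.51 and 0.35 in control mice. Ero1l, the oxidase that recharges protein disulfide isomerase, was chosen for mention after its values were seen. It was higher in mutant MPP3 than in MPP4 (1.36 ± 0.28, adjusted p = 0.0134) and than in ST-HSC (1.21 ± 0.28, 0.0155), and in control MPP3 than in ST-HSC (1.25 ± 0.28, 0.0227). Of 22 genes of transport to and through the Golgi, 1 was called in all 6 comparisons together. Of 18 chaperones of cytosol and mitochondria, none of the 16 tested was called by edgeR (0 to 5 at an unadjusted p under 0.05), with medians of 0.05 to 0.12 in mutant and 0.02 to 0.40 in control mice. Of 25 genes of amino acid supply and the integrated stress response, 1 higher call was made in mutant and 1 higher and 2 lower in control mice. None of the 4 lists had a call in a mutant minus control comparison by edgeR, with 0 to 4 genes of a list at an unadjusted p under 0.05.

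Members with an ER stress element in the promoter were set beside those without, as a description. Among members with a promoter, the 11 with either element had a median log2 difference of 1.28, 0.89 and 0.78 in mutant MPP3 against ST-HSC, LT-HSC and MPP4, and the 20 without had 0.60, 0.52 and 0.52. In control mice the 11 with an element had 0.78, 0.76 and 0.71, and the 19 tested without had 0.65, 0.64 and 0.55. Calls were 7, 2 and 2 with an element and 5, 4 and 2 without in mutant mice, and 1, 1 and 1 with and 4, 4 and 5 without in control mice.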

How the data were processed

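The authors deposited an expected count per gene for each of 29 libraries, which need not be whole and is not normalized. The tools they list are edgeR 3.5.3, SAMtools 0.1.18, RSEM 1.2.12 and Bowtie2 2.2.0, with GRCm38 as build, per the submitters' processing notes, which give no role or order. The counts were rounded to whole numbers, and none of their columns was left out. In R 4.3.3, edgeR 4.0.16 was run with TMM scaling, filterByExpr (minimum count 10, total 15), the robust quasi-likelihood test on whole tables and Benjamini-Hochberg adjustment over all genes tested, at 0.05. Levels are TMM-scaled CPM computed here, with a prior count of 2 on the log2 scale. Mutant and control populations were fitted separately, mutant minus control within each population, and the mean and difference of the mutant effects over all 29 libraries. DESeq2 1.42.0 and limma 3.58.1 served the alternatives. The scripts were tested on simulated data.

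The members and gene lists were chosen with earlier results of these data known. All 36 members are named or counted by role. Values per library are given for the 12 members with the smallest adjusted p in any comparison between populations, and for Hspa5, Xbp1, Atf4 and Ddit3 whatever their p. Library totals were 6133994 to 10374672, and the floors cover counting error only, whereas the standard errors include the spread between libraries. Replicates of a group differed by more than counting noise, and none was counted as a duplicate. The number in the description was not taken to pair libraries: of 39 pairs (r of -0.152 to 0.175) 6 were over 0.1, and control MPP3 minus ST-HSC, with only 2 pairs, was the 1 comparison with all pairs over it. The rep number in the title had none of 13 pairs over it (-0.175 to 0.0915). Of 38924 identifiers, 1317 had no symbol and stayed in the fits. Promoters are from RefSeq (GRCm38.p6).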

Additional observations from a re-analysis of the deposited data

Results flagged for a closer look

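Of 180 sets of 4 libraries (a member in a group of 4), 15 (8.33%) held a library far from the other 3 by Dixon's test at 95%, where chance flags about 1 in 20. No explanation was tested for any of them. Pdia4 was at 6.768 CPM in mutant ST-HSC replicate 2, against 32.43 to 37.3 CPM in the other 3. Ddit3 was at 3.73 CPM in mutant ST-HSC replicate 3, against 15.93 to 18.24 CPM in the other 3. Atf6 was at 198.2 CPM in mutant MPP3 replicate 1, against 98.27 to 109.1 CPM in the other 3. Ppp1r15a was at 93.52 CPM in mutant MPP3 replicate 1, against 40.23 to 48.71 CPM in the other 3. Dnajb11 was at 81.9 CPM in mutant MPP4 replicate 1, against 44.72 to 48.07 CPM in the other 3. Sec61b was at 67.86 CPM in mutant MPP4 replicate 3, against 20.43 to 28.24 CPM in the other 3. Herpud1 was at 30.05 CPM in mutant MPP4 replicate 3, against 19.7 to 21.3 CPM in the other 3. Trib3 was at 0.7605 CPM in mutant MPP4 replicate 4, against 0 to 0.1255 CPM in the other 3. These are 7 counts against 0 to 1, near the floor.

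Derl3 was at 10.33 CPM in control LT-HSC replicate 3, against 0.1412 to 0.3566 CPM in the other 3. Atf6 was at 52.52 CPM in control LT-HSC replicate 4, against 71.25 to 74.78 CPM in the other 3. Asns was at 5.647 CPM in control LT-HSC replicate 4, against 13.74 to 15.03 CPM in the other 3. Canx was at 429.3 CPM in control MPP4 replicate 2, against 206 to 236 CPM in the other 3. Sec61a1 was at 127.3 CPM in control MPP4 replicate 2, against 80.49 to 85.04 CPM in the other 3. Sec61b was at 19.23 CPM in control MPP4 replicate 3, against 33.62 to 36.47 CPM in the other 3. Trib3 was at 0.6833 CPM in control MPP4 replicate 1, against 0.09938 to 0.192 CPM in the other 3. These are 5 counts against 1 to 2, near the floor.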

How the results depend on the processing

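Of 884 alternative values for the 48 calls, 525 kept the call, 357 lost it and 2 turned round. RLE size factors and DESeq2 kept all 48, and 13 held in every fit that left out 1 library. The 2 that turned round were Xbp1 in mutant MPP3 against LT-HSC (-0.39) and MPP4 (-0.49) with antibody RNA as a covariate. That covariate largely follows the MPP3 label, so its fits cannot tell antibody RNA from MPP3 membership. Causes were not tested. Depth limits the genes near the floor, such as Trib3 and Derl3.

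Without 1 library, the count of members called was 2 to 6 in control MPP3 minus LT-HSC, 1 to 4 in control MPP3 minus ST-HSC, 1 to 9 in control MPP3 minus MPP4, 0 to 2 in control MPP4 minus LT-HSC and 0 to 1 in control MPP4 minus ST-HSC. It was 0 to 7 in mutant MPP3 minus LT-HSC, 9 to 14 in mutant MPP3 minus ST-HSC, 2 to 5 in mutant MPP3 minus MPP4 and 0 to 1 in mutant MPP4 minus ST-HSC, and 0 in every other comparison. DESeq2 called 13 members in control MPP3 minus ST-HSC, 10 in control MPP3 minus MPP4, 13 in mutant MPP3 minus LT-HSC and 8 in mutant MPP3 minus MPP4. With the antibody covariate, 1 was called in control MPP3 minus LT-HSC, and 0 in control MPP3 minus ST-HSC, control MPP3 minus MPP4, the 3 mutant MPP3 comparisons and mutant MPP4 minus ST-HSC. With the description number as replicate block, mutant MPP3 minus LT-HSC gave 3. These numbers were not taken to pair the samples, although both pairs of control MPP3 minus ST-HSC correlated over 0.1 (7 with the block), and no other count moved by over 1.5 times with the block.

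Within the libraries whose number begins with 17 (1 control MPP3 and 1 mutant LT-HSC library), control MPP3 gave 1 against LT-HSC, 0 against ST-HSC and 2 against MPP4, and the mutant MPP3 comparisons and all MPP4 minus LT-HSC or ST-HSC comparisons gave 0. Within those of 18 (1 control ST-HSC library), control MPP3 gave 3 against each other population, mutant MPP3 gave 0 against LT-HSC, 1 against ST-HSC and 0 against MPP4, and the MPP4 comparisons gave 0. Without the MPP3 libraries over 200 CPM of Jchain (1 control library left), control MPP3 gave 1 against LT-HSC, 1 against ST-HSC and 0 against MPP4, and mutant MPP3 gave 2, 6 and 2. Without the control LT-HSC libraries over 100 CPM of S100a8 (1 left), control MPP3 minus LT-HSC gave 1 and control MPP4 minus LT-HSC 0. With all 29 libraries in the fit, control MPP4 minus LT-HSC gave 0 and control MPP3 minus MPP4 gave 3. Without robust estimation, mutant MPP4 minus ST-HSC gave 0. The alternatives on the 17 and 18 numbers (as subsets or as a term), Jchain, S100a8 and robust estimation were chosen after seeing the data.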
